A study of Mus musculus with 2 samples.

Results

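A set of 10 immediate early genes, encoding subunits of the AP-1 transcription factor (Fos, Fosb, Jun, Junb, Jund), zinc finger factors of the Egr family (Egr1, Egr2) and orphan nuclear receptors of the NR4A family (Nr4a1, Nr4a2, Nr4a3), were followed in the adrenal gland of young mice. They were taken by gene symbol from the deposited transcript tables and linked by gene identifier to the gene tables, which gave 10 genes of 55536. The study sequenced total RNA, with ribosomal RNA reduced, from adrenal glands of female B6CASTF1/J mice, the F1 hybrid strain named in the labels, at 14 days of age. No treatment, genotype difference or second tissue is labelled, so there is 1 group with 2 libraries, replicate 1 and replicate 2, each made from 300 ng of RNA with ERCC spike-ins (synthetic RNAs added in known amounts). The tissue label of replicate 1 names 3 pooled females and that of replicate 2 a single numbered female. Both library descriptions name the same pool, and both tissues carry the same donor record. Whether the replicates are separate animals is therefore not settled by the labels. The difference between the libraries may be technical in part.

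AP-1 is a dimer of leucine zipper proteins, in which a Fos protein pairs with a Jun protein or Jun proteins pair with each other. Transcription of most of these genes starts within minutes of a stimulus without new protein synthesis, through SRF and its ETS partners, CREB and MEF2 proteins already present in the cell, and the messenger RNAs are short-lived. In the adrenal cortex the peptide hormone ACTH acts through cyclic AMP and angiotensin II through calcium to induce several of them. Nr4a1 (Nur77) and Nr4a2 (Nurr1) bind control regions of steroid enzyme genes, and in the medulla Egr1 and AP-1 act on genes of catecholamine synthesis.

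The libraries held 37586172 and 33844950 expected counts, of which ERCC spike-ins took 0.337% and 0.322%. At that depth a gene at 0 counts could still make up 7.98e-06% and 8.86e-06% of the counts, the share that 3 counts would be. Both libraries held the defining RNAs of the adrenal gland, with all 8 cortex markers and all 8 chromaffin cell markers at 1 TPM (abundance per length, relative to all RNA in the table) or more. They differed in RNA of other tissues. The 10 hepatocyte markers summed to 355 TPM in replicate 1 and 19345 TPM in replicate 2, led by Alb, albumin (189 and 10582 TPM), and the 10 skeletal muscle markers to 25.6 and 520 TPM, led by Acta1. The 11 T cell and thymocyte markers summed to 54.6 TPM in replicate 1 and 2.30 TPM in replicate 2, led by Rag1, and all 11 were lower in replicate 2. Of 6 red cell markers, led by Hbb-bs, all were lower in replicate 2 (summed TPM 5924.5 and 1793). The adipocyte list, led by Fabp4, stood at 2374 and 2632 TPM, the endothelial list, led by Egfl7, at 261 and 201 TPM, the macrophage list, led by Lyz2, at 50.7 and 60.4 TPM, and the fibroblast and capsule list, led by Col3a1, at 329 and 437 TPM. The 6 kidney tubule markers summed to 0.49 and 0.27 TPM, with Slc12a1 and Umod at 0 in both libraries and Lrp2 the highest by mean TPM.

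The stretches before the start sites are shown because the members differ in them: the 3 NR4A genes each held 4 copies of TGACG or its complement CGTCA, the core of the cAMP response element bound by CREB, Fos held 2, and Jun held none. RefSeq promoters of the mm10 assembly (GRCm38.p6) matched 9 of the 10 members, all but Egr1. The 250 bases before each start were searched on both strands. Sequences read 5′ to 3′ on the strand of the gene. Capitals mark TGACG or CGTCA and, besides these, TGACATCA in Jun and the Egr site CGCCCCCGC in Nr4a1.
Fos (chr12:85473640-85473889, plus strand): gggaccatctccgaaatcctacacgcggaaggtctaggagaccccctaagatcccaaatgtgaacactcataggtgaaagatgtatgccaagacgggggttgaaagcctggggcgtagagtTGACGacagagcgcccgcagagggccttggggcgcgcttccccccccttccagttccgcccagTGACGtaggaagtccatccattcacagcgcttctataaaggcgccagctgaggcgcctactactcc
Jun (chr4:95052223-95052472, minus strand): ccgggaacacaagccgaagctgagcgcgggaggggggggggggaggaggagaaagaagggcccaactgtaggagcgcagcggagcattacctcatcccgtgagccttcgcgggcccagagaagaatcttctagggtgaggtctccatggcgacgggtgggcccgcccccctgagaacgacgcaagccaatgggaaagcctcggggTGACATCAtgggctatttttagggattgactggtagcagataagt
Nr4a1 (chr15:101266596-101266845, plus strand): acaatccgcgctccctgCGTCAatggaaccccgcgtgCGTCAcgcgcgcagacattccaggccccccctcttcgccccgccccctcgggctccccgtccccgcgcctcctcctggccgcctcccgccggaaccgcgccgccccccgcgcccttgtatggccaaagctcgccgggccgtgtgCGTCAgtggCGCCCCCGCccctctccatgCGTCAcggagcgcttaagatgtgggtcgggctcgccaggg
Nr4a2 (chr2:57124004-57124253, minus strand): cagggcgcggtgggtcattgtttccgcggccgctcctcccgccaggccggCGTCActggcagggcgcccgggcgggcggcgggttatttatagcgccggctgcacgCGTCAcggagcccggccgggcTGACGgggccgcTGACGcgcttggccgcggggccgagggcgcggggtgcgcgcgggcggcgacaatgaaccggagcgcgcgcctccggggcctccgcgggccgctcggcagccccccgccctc
Nr4a3 (chr4:48045055-48045152, plus strand): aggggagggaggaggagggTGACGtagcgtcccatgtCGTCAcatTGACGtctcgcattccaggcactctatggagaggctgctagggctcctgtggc

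Fos carried its TGACG copies 129 and 66 bases before the start and a TATA box (TATAAA, searched on the gene's strand) 33 bases before it, letters that 7.6% of promoters hold. Fosb and Junb, not printed, held 1 TGACG copy each, 60 and 106 bases before the start. Of the 32817 RefSeq promoters of the same length, 17.7% held at least 1 such core, so the 6 members with one are a description of these letters and not of binding. The printed Nr4a3 stretch is 98 bases and shows 3 of its 4 copies, because the RefSeq start lies inside the annotated first exon of the GENCODE model. Jun carried TGACATCA, a relative of the AP-1 site, 45 bases before its start; 2.93% of promoters hold these letters on either strand. The Egr site (GCGTGGGCG or GCGGGGGCG), found in 3.06% of promoters, was present once in Fosb and once in Nr4a1. None of the 9 windows held the full response element TGACGTCA (1.55% of promoters), the AP-1 site TGAGTCA (4.46% with its complement), the NR4A site AAAGGTCA (1.34%) or a CArG box, the SRF site (1.47%). The TGACG core is part of TGACGTCA, so these motifs overlap where both occur. Egr1 had no matched promoter and was not searched. Sequence outside the windows was not searched either, and the Jund window lies 1210 bases before its GENCODE start. The search therefore cannot say whether a member has a CArG box or another of these sites elsewhere.

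In the gene table Nr4a1 RNA was the most abundant of the 10 in both libraries, and Egr2 RNA the least abundant. In the second transcript table Jund (56.2 TPM) stood above Nr4a1 (50.6 TPM) in replicate 2. On the TPM scale, which is per length, mean levels ran from Nr4a1 through Jund, Egr1, Junb, Jun, Nr4a3, Fos, Nr4a2 and Fosb to Egr2. Of the 9 steps in that order, only the step from Jund to Egr1 separated the ranges of the libraries, and the orders of Egr1 and Junb, of Junb and Jun, and of Jun and Nr4a3 held in 1 library only. The 10 genes together came to 285 TPM in replicate 1 and 118 TPM in replicate 2. All 10 levels were lower in replicate 2. The share of all genes lower in TPM was not counted, so this count cannot be read as particular to the members. Scaling to total counts, which like TPM is relative to all RNA, shifted every gene's log2 difference by -0.34 against the TMM scale used below.

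**Figure D1:**
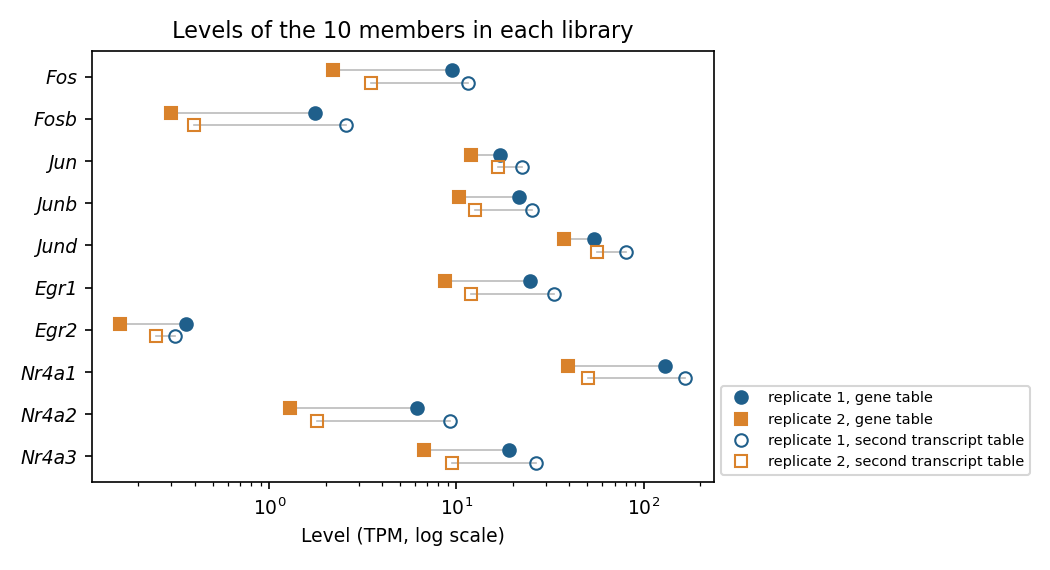
Level of each gene in TPM (log axis) in replicate 1 (circles) and replicate 2 (squares), from the gene table (filled) and the second transcript table (open). The replicate 2 symbol lies to the left of the replicate 1 symbol for every gene in both tables, and Nr4a1 is the highest in replicate 1.

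The Fos family genes were the furthest apart between the libraries. Fos, the inducible partner of Jun proteins, lies on the plus strand of mm10 at chr12:85473890-85477273 and measured 9.50 TPM in replicate 1 against 2.19 TPM in replicate 2 (mean 5.84 ± 5.17 SD, n = 2). The levels behind these values were 602 and 133 expected counts. With library sizes scaled by edgeR's TMM, which sets the bulk of genes to no difference, Fos was 3.21-fold lower in replicate 2 (95% counting interval 2.67 to 3.92). Fosb, whose protein also pairs with Jun proteins and has a shorter splice form known from neurons, lies on the minus strand at chr7:19302696-19310051. It stood at 1.76 and 0.30 TPM (mean 1.03 ± 1.03 SD, n = 2), from 219 and 35 counts, and was 4.40-fold lower in replicate 2 (3.11 to 6.56). Replicate 1 was the high library for both genes. Fosb stood at 0.185 of the Fos level in replicate 1 and 0.137 in replicate 2. Only 0.959% of tested genes had a lower difference than Fos and 0.576% than Fosb.

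Jun and Jund were close to level between the libraries, and Junb was not. Jun (chr4:95049034-95052222, minus strand), the main dimer partner of Fos, stood at 17.0 and 11.9 TPM (mean 14.5 ± 3.63 SD, n = 2) from 1821 and 1211 counts. It was 1.07-fold lower in replicate 2 (0.995 to 1.15), which did not exceed counting noise (exact binomial test of the 2 libraries, Benjamini-Hochberg adjusted p = 0.116). Jund (chr8:70698949-70700616, plus strand), the steadily expressed Jun protein, was the most abundant AP-1 gene at 54.4 and 37.4 TPM (mean 45.9 ± 12.0 SD, n = 2). Its 2951 and 1932 counts put it 1.09-fold lower in replicate 2 (1.03 to 1.15, exact binomial adjusted p = 0.0099). Junb (chr8:84974484-84978718, minus strand), an inducible Jun protein that can oppose Jun, stood at 21.5 and 10.3 TPM (mean 15.9 ± 7.95 SD, n = 2), from 1274 and 580 counts. Junb was 1.56-fold lower in replicate 2 (1.42 to 1.73), the largest difference of the trio.

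Jund and Jun kept nearly the same ratio in both libraries, and Junb and Fos did not keep theirs to Jun. Jund stood at 3.19 times the TPM of Jun in replicate 1 and 3.14 times in replicate 2. The log2 ratio was 1.66 ± 0.02 (SD, n = 2), a spread between the libraries only. Its mean was 1.80 from the second transcript table and 0.69 from expected counts, which are not per length. Junb stood at 1.26 times the level of Jun in replicate 1 and 0.865 times in replicate 2, on opposite sides of it. Fos was at 0.558 of the Jun level in replicate 1 and 0.184 in replicate 2. Summed TPM of the Fos genes was 11.3 and 2.49 against 92.9 and 59.5 for the Jun genes, with Jund 58.5% and 62.7% of the latter. Jun and Jund each overlap an antisense gene, Junos (20 and 12 counts) and Gm11175 (25 and 16 counts), and the end of a minor Junb transcript overlaps Prdx2 on the opposite strand. That minor form, Junb-202, was assigned 0 counts in both libraries in both transcript tables. Whether counting used strand is not given in the sources used here, so reads from the overlaps cannot be told apart.

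Egr1 carried nearly all of the measured Egr1 and Egr2 RNA. Egr1 (chr18:34859823-34864984, plus strand), a factor that responds to growth and hormone signals, measured 24.6 TPM in replicate 1 against 8.65 TPM in replicate 2 (mean 16.6 ± 11.3 SD, n = 2). From 2613 and 888 counts it was 2.09-fold lower in replicate 2 (1.94 to 2.26). Egr2 (chr10:67535475-67542188, plus strand), best known from Schwann cells and lymphocytes, was close to the limit of detection at 0.36 and 0.16 TPM, from 18 and 11 counts. Its mean count was under the minimum of 20 set for tests, and the counting interval of its difference, 0.52 to 2.73-fold lower, spans no difference. Egr2 stood at 0.0146 and 0.0185 of the Egr1 level.

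All 3 NR4A genes were lower in replicate 2, and their order was the same in both libraries. Nr4a1 (chr15:101254269-101274795, plus strand) stood at 130.4 and 39.4 TPM (mean 84.9 ± 64.3 SD, n = 2), from 9847 and 2956 counts, and was 2.37-fold lower (2.28 to 2.47). Nr4a2 (chr2:57106830-57124003, minus strand), known from dopamine neurons, stood at 6.14 and 1.29 TPM (mean 3.72 ± 3.43 SD, n = 2), from 583 and 143 counts, and was 2.89-fold lower (2.41 to 3.51). Nr4a3 (chr4:48045153-48086447, plus strand), also called NOR-1, stood at 19.2 and 6.73 TPM (mean 12.95 ± 8.80 SD, n = 2), from 2787 and 1051 counts, and was 1.89-fold lower (1.76 to 2.03). Nr4a1 exceeded Nr4a2 by 21.2 times in replicate 1 and 30.6 times in replicate 2, and Nr4a3 by 6.80 and 5.86 times. It made up 83.7% and 83.1% of the summed NR4A TPM. Fosb, with 1 TGACG or CGTCA core before the start, and Fos, with 2, had larger differences than the 3 NR4A genes with 4 each. Whether the number of cores is related to the difference was not tested. Jun and Jund had none and the smallest differences of the members tested, and the Jund window lies 1210 bases before the start in the GENCODE model.

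Among the 49 genes of the nuclear receptor family, Nr4a1 ranked second by TPM in both libraries, behind Nr5a1 (SF-1), the receptor that defines steroid-producing cells. Nr4a1 stood at 0.988 of the Nr5a1 level (132 TPM) in replicate 1 and 0.716 of it (55.1 TPM) in replicate 2. Nr4a3 ranked 9 in replicate 1 and 28 in replicate 2, and Nr4a2 ranked 27 and 40. Of 42 receptor genes tested, where 8.7% of all genes were lower and 14.4% higher, 6 were at least 1.5-fold lower in replicate 2, among them the 3 NR4A genes and Nr5a1 (1.79-fold), and 14 were at least 1.5-fold higher. Those 14 included Rxra, Ppara, Nr3c1 (the glucocorticoid receptor), Nr2f6 and Esrra. They also included Hnf4a (79.8-fold higher), Nr1i2 (73.8-fold) and Nr1i3 (58.1-fold), receptors known from liver and named after their values were seen, beside the hepatocyte marker Alb at 80.2-fold higher. The part of liver RNA in the count was not tested. The median log2 difference of the family was 0.19.

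Counted together, 7 of the 9 members tested were at least 1.5-fold lower in replicate 2 and none was higher. The background was 16155 genes whose mean count reached 20, of which 8.7% were lower by that measure and 14.4% were higher. The exact binomial test, which covers counting error only, put 8 of the 9 members lower beyond counting noise and none higher, where 24.7% of all genes were lower and 28.5% higher. The median log2 difference was -1.07 over the 9 members and -0.0022 over all genes. Fos and Fosb were also among the 1.03% of genes at least 3-fold lower. These 2 libraries give a single difference per gene, so it has no replicate check and compares libraries, not conditions.

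**Figure D2:**
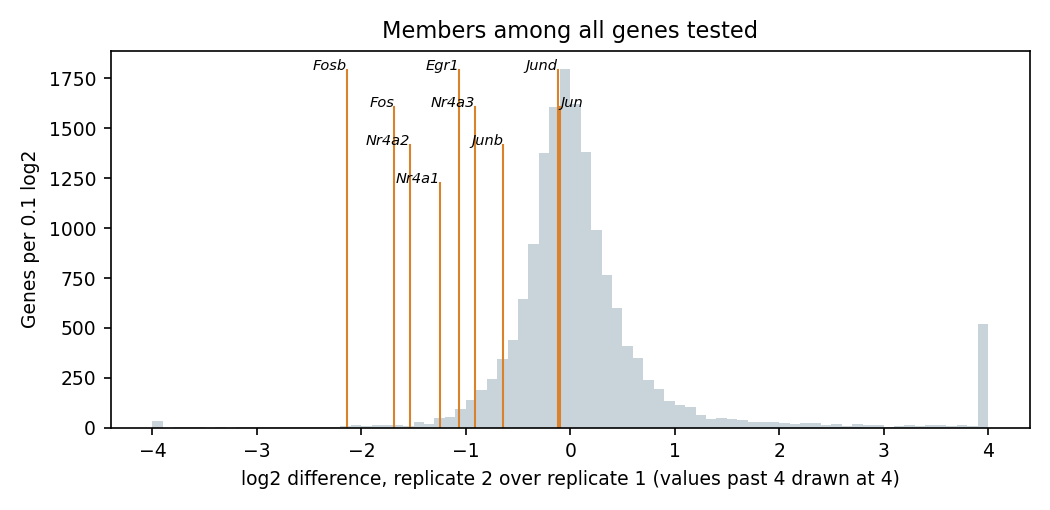
Number of tested genes per 0.1 of log2 difference, replicate 2 over replicate 1 (grey bars, 16155 genes, values past 4 drawn at 4), with the 9 members tested marked by lines. The lines of 7 members lie in the left slope of the distribution, from Junb at -0.64 to Fosb at -2.14, and the lines of Jun (-0.10) and Jund (-0.12) lie near its peak.

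Markers of adrenal cells were lower in replicate 2 as well. All 8 cortex markers were at least 1.5-fold lower in replicate 2, where 8.7% of all genes were. Their median log2 difference was -0.87. Their summed level was 8355 TPM in replicate 1 and 3521 TPM in replicate 2, led by Hsd3b1, a steroid dehydrogenase (2870.1 and 1275 TPM). Of the 8 chromaffin cell markers, 7 were also at least 1.5-fold lower, led by Chgb, chromogranin B (557 and 269 TPM). In bulk tissue fewer cells of a type and less RNA per cell cannot be told apart. With the median difference of the 8 cortex markers set to 0, a scale added after the values were seen, 3 of the 9 members stayed at least 1.5-fold lower, where 1.15% of all genes did: Fos at log2 -0.82, Fosb at -1.27 and Nr4a2 at -0.67. On that scale Egr1 stood at -0.20, Nr4a1 at -0.38 and Nr4a3 at -0.05, and Junb at 0.22, Jund at 0.75 and Jun at 0.77 were on the higher side. The scale raises every gene by the same amount. Only 3.29% of tested genes had a lower difference than Nr4a3, so most genes were on the higher side too. The 8 cortex markers themselves ran from log2 -0.76 (Hsd3b1) to -1.12 (Mc2r). Fos, Fosb, Nr4a2 and Nr4a1 lay below all 8, Egr1 and Nr4a3 lay among them, and Junb, Jun and Jund lay above all 8. T cell and red cell markers were lower in replicate 2 too, and hepatocyte and muscle markers were higher, opposite to the members. The part of these tissues in the result was not tested.

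**Figure D3:**
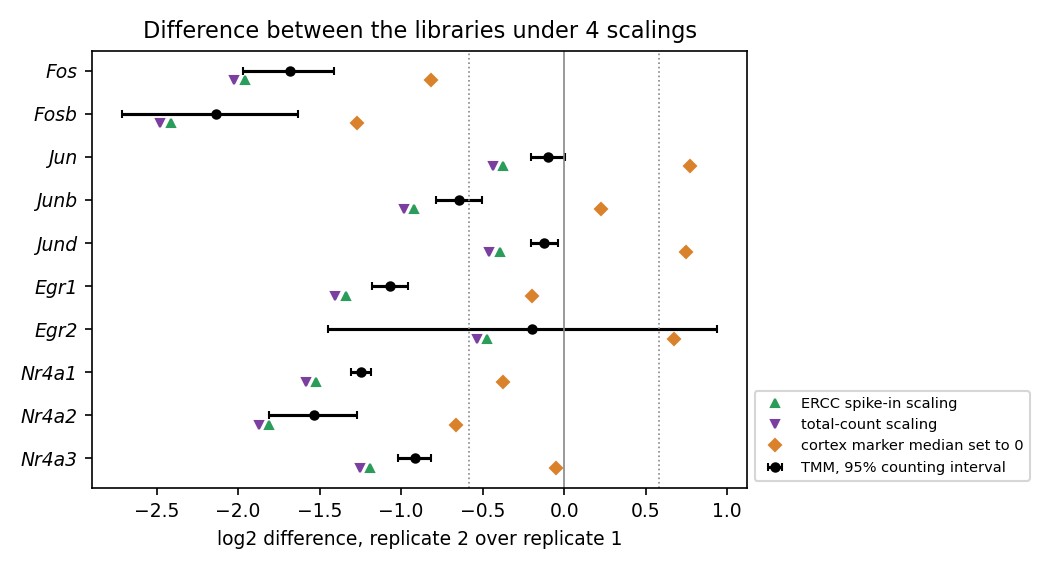
Log2 difference, replicate 2 over replicate 1, of each member under TMM (black, bars are 95% counting intervals), ERCC spike-in scaling, total-count scaling and with the cortex marker median set to 0; dotted lines mark 1.5-fold. Fos, Fosb and Nr4a2 lie left of the dotted line at 1.5-fold lower under all 4 scales. Junb, Jun, Jund and Egr2 cross to the right of 0 on the cortex scale, which moves every gene to the right by the same amount.

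Transcript assignments differed in how far the 2 transcript tables gave the same form. Fos-201, the full coding transcript, took 86.5% and 87.3% of Fos TPM in the first transcript table, but 81.7% and 54.7% in the second. Egr1-202 took 90.8% and 87.8% of Egr1 TPM in the first table. Jun and Jund have 1 annotated transcript each. Fosb was assigned to Fosb-201 (60.6%), Fosb-207 (22.4%) and the retained intron form Fosb-204 (16.9%) in replicate 1, and to Fosb-205 (89.9%) in replicate 2. With 35 counts in replicate 2, which Fosb form was present was not resolved. The 2 transcript tables gave Nr4a1 RNA to different first exons. The first table put 88.4% and 92.1% of Nr4a1 TPM on Nr4a1-201, whose start directly follows the printed Nr4a1 stretch, and the second table put 10489 and 2967 estimated counts on Nr4a1-202, which starts 12577 bases upstream, and close to none on Nr4a1-201. Both share the coding exons, so the gene total is not affected, and which start was used is not settled by these files.

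RNA assigned to transcripts annotated as retained introns or processed transcripts, which hold intron sequence or lack a full reading frame, showed a larger difference than coding transcripts for Nr4a1, Nr4a3, Fosb and Nr4a2. This split was chosen after the values were seen. For Nr4a1 this class stood at 282 and 41.4 counts, 4.81-fold lower (3.52 to 6.97), against 2.34-fold for coding transcripts. For Nr4a3 it stood at 183 and 30.4 counts, 4.24-fold lower (2.94 to 6.62), against 1.82-fold. For Nr4a2 it went from 49.2 counts in replicate 1 to 0 in replicate 2. Against a floor of 3 counts in replicate 2 it was 11.7-fold lower, and the 95% counting interval starts at 9.10-fold. Coding transcripts of Nr4a2 were 2.53-fold lower. Fosb had 36.4 and 2.65 counts (8.34-fold lower, 2.70 to 43.4), against 3.97-fold. The second table gave 5.14-fold for Nr4a1, 3.79-fold for Nr4a3 and 9.23-fold for Fosb. For Fos the tables differed, with 3.26-fold in the first and 1.14-fold (0.64 to 2.15) in the second.

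For 3 of these genes the gap was within the range of most genes. The gap is the log2 difference of the retained intron and processed transcript class minus that of coding transcripts. Over 7535 genes with a mean of at least 10 counts in each class it had a median of -0.23. The span from the 10th to the 90th percentile ran from -1.22 to 0.68. In that class Nr4a1 and Fosb had retained intron forms, and Nr4a2, Nr4a3 and Fos had processed transcripts only. The gaps of Nr4a1 (-1.04), Fosb (-1.07) and Nr4a3 (-1.22) lay inside that span, at its lower end. The gap of Nr4a2 lay below it, with replicate 2 at 0 counts. For Fos the gap was -0.03 in the first table and 1.72 in the second, where the 90th percentile over genes was 0.66.

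**Figure D4:**
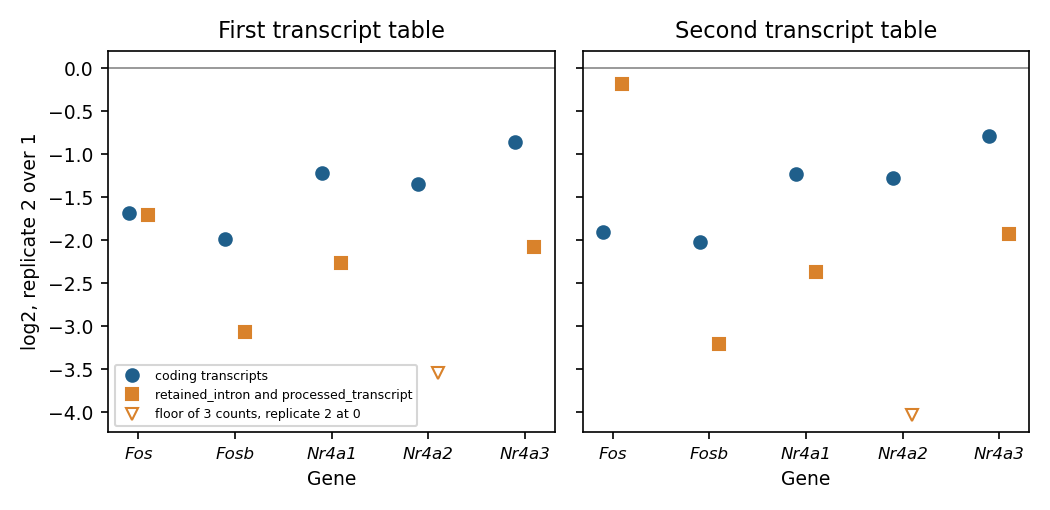
Log2 difference, replicate 2 over replicate 1, of coding transcripts (circles) and of transcripts annotated as retained introns or processed transcripts (squares) for 5 members, in the first and second transcript table; an open triangle sets replicate 2 to a floor of 3 counts where it was at 0. Squares lie below circles for Nr4a1, Nr4a3 and Fosb in both tables, and above the circle for Fos in the second table.

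On the TMM scale most other early response genes did not pass 1.5-fold. Of 41 tested on a list of 45, 6 were at least 1.5-fold lower in replicate 2, against 8.7% of all genes, 1 was higher and 34 were neither, with a median log2 difference of -0.15. With ERCC scaling 14 were lower and with total counts 18, where 20% and 24.9% of all genes were lower. With the cortex marker median set to 0, 25 were higher. Most of all genes were at least 1.5-fold higher on that scale. Jund was (log2 0.75), and only 36.9% of tested genes had a lower difference than Jund. Gem, a small GTPase (22.96 and 9.59 TPM, log2 -0.84), Myc, a growth factor-responsive transcription factor (22.1 and 9.87 TPM, -0.71), Gadd45b (9.91 and 4.46 TPM, -0.64) and Ier3 (4.12 and 1.68 TPM, -0.87) were lower. Dusp2, a phosphatase of MAP kinases, was at -0.73 from 31 and 13 counts, with a counting interval (0.86 to 3.53-fold lower) that spans no difference. Trib1, a pseudokinase, was the gene on the higher side (714 and 765 counts, 0.59).

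**Figure D5:**
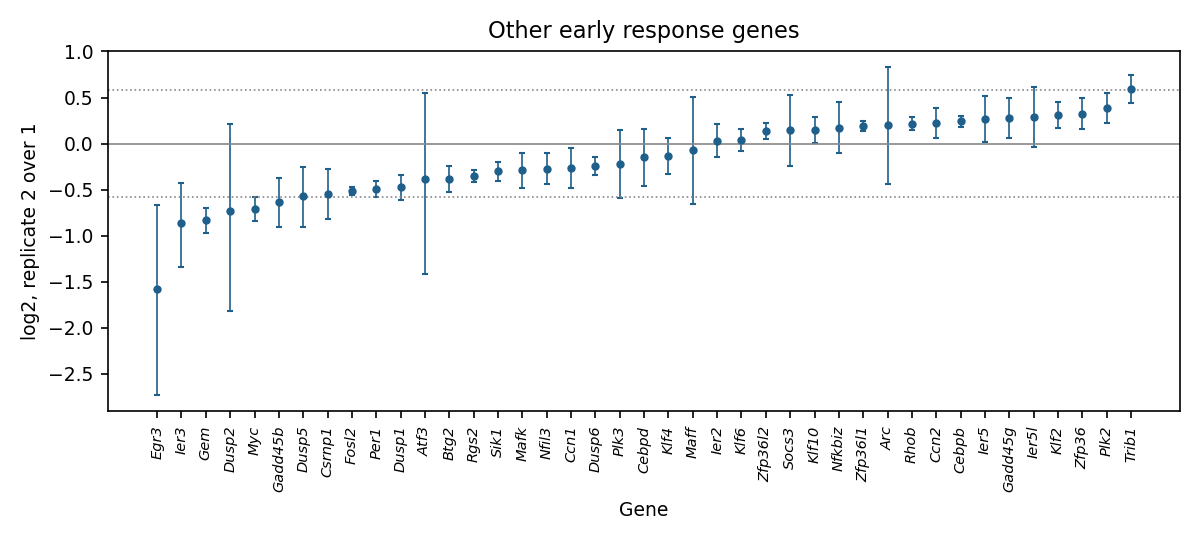
Log2 difference, replicate 2 over replicate 1, of the 41 other early response genes tested, in rising order, with 95% counting intervals; dotted lines mark 1.5-fold. Egr3 is the lowest at -1.59 and Trib1 the highest at 0.59, and most genes lie between the dotted lines.

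The relatives and partners of the members were mixed. Egr3, another factor of the Egr family, stood at 48 and 11 counts and was 3.00-fold lower in replicate 2 (1.59 to 6.63), while Nab1 (log2 -0.09) and Nab2 (0.19), corepressors that bind Egr proteins, were near level. In that list of 5 tested genes Egr3 was the only one past 1.5-fold. Fosl2 (Fra-2), a Fos family protein outside the members, was far more abundant than Fos at 79.8 and 40.1 TPM and stood at log2 -0.52. Fosl1 (Fra-1) was close to absent, with 2 counts and 1 count. Of 12 AP-1 partners and relatives tested, Atf4, a factor of the stress response, was lower (63.9 and 29.6 TPM, log2 -0.68) and 10 did not pass 1.5-fold in either direction, with a median of -0.18.

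The factors that act on the members' promoters stayed under 1.5-fold on the TMM scale. None of 17 upstream factors and coactivators passed 1.5-fold in either direction, where 8.7% of all genes were lower and 14.4% higher. By the exact binomial test 9 were lower beyond counting noise and 0 higher, where 24.7% of all genes were lower and 28.5% higher. Their median log2 difference was -0.21. The count past 1.5-fold depended on the scale: 2 were lower with ERCC scaling and 5 with total counts, where 20% and 24.9% of all genes were lower. With the cortex marker median set to 0, 12 were higher, as were most of all genes on that scale. Srf, which binds the CArG box, stood at 13.4 and 8.29 TPM (log2 0.12), Creb1, which binds the cAMP response element, at 12.6 and 8.06 TPM (-0.09), and Elk1, an ETS partner of Srf, at 4.65 and 3.23 TPM (-0.12). Of 19 upstream kinases, 1 was past 1.5-fold: Camk4, a calcium-dependent kinase abundant in T cells and neurons, was at 2.67 and 0.81 TPM (log2 -1.44). The 11 T cell markers had a median log2 difference of -4.79 between the same libraries. The kinases' median was -0.03, and RNA levels say nothing of kinase activity.

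Adrenal genes of steroid and catecholamine synthesis, with their receptor and regulator genes, were lower along with the members. Of 12 on that list, all tested, 11 were at least 1.5-fold lower in replicate 2, where 8.7% of all genes were. The median log2 difference of the list was -0.78. Star, which carries cholesterol into mitochondria, stood at 2049 and 838 TPM (log2 -0.94), Cyp11a1 at 1202 and 517 TPM (-0.81), Cyp11b1 at 882 and 353 TPM (-0.90) and Cyp21a1 at 1347 and 639 TPM (-0.66). Mc2r, the ACTH receptor upstream of the NR4A genes, stood at 99.1 and 34.0 TPM (-1.12). The exception was Nr0b1 (DAX-1), a repressor of Nr5a1, at 4.67 and 3.73 TPM (0.10), named after its value was seen. Several of these genes are also cortex markers, so the list and the cortex list are not separate observations. Nr4a1 stood at 0.0636 of the Star level in replicate 1 and 0.0471 in replicate 2.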

How the data were processed

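Total RNA-seq libraries of 1 group, replicates 1 and 2, were analysed. Expected counts and TPM in the authors' gene table and in their first transcript table, per the file headers, derive from a transcriptome alignment, per the text deposited with each sample. The second transcript table holds deposited estimated counts and TPM made from read files and an index. The percent of a gene's TPM on each transcript is the authors' column, and the deposited bounds of TPM, a score of unstated level, were read but not used. Assembly was mm10 and annotation GENCODE M21, per the same text. Which tools made the tables, and whether they used strand, is not given in the sources used here. The kit is directional per the labels' protocols. TPM is relative to all entries of a table, so RNA of another tissue lowers every other gene's TPM.

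Expected counts were rounded to whole numbers and scaled by edgeR 4.0.16 TMM in R 4.3.3. A difference is log2 of the scaled counts, replicate 2 over replicate 1, after adding a prior count of 0.5. Genes of the nuclear genome whose mean count reached 20 were tested. Calls were a fold of 1.5 or an exact binomial test conditional on the summed count (the smaller tail doubled, two-sided, with Benjamini-Hochberg adjusted p under 0.05, scipy 1.17.1). Fold intervals are by Clopper-Pearson at 95% and, like the floor of 3 counts, cover counting error only. No group test was possible with 1 group. Members and gene lists were chosen with earlier results of these data known. Named were all members, called list genes (at most 5 per list and direction, by mean TPM), list genes needed to read a member, and the highest gene of each marker list; some genes that this rule names are not reported here. Scripts were tested on simulated counts. Alternatives were size factors of DESeq2 1.42.0, scaling to ERCC or to total counts, TMM without markers of other tissues, other count minimums and pseudocounts, a fold of 2, rescaled TPM, the second table and leaving out each replicate. A scale on cortex markers and the split of coding transcripts from retained introns and processed transcripts were added after values were seen.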

Additional observations from a re-analysis of the deposited data

How the results depend on the processing

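The same 7 members were at least 1.5-fold lower in replicate 2 with size factors of DESeq2, scaling to ERCC or to total counts, TMM without markers of other tissues, the second table, no minimum count and a minimum of 100, and 5 were at least 2-fold lower. The share of all genes at least 2-fold lower was not counted. For most of the settings above, the 7 calls were fixed in advance. Size factors of DESeq2 and TMM without those markers moved all differences by only 0.00064 and 0.0009. The count minimums change no fold, and scaling to ERCC or to total counts moves every gene lower. Relative to TMM, spike-in scaling shifted all differences by -0.28 and total-count scaling by -0.34. The members' median was then -1.34 and -1.41, and it was -1.38 and -1.50 from TPM with pseudocounts of 1 and 0.1. On those scales 20% and 24.9% of all genes were lower, and Jun was lower beyond counting noise (log2 -0.37 and -0.44). With the cortex marker median set to 0, the median was -0.20, and 3 members were at least 1.5-fold lower, where 1.15% of all genes were. On that scale 5 members were lower beyond counting noise. Jun (0.77), Junb (0.22) and Jund (0.75) changed direction and were higher beyond counting noise. The shares of all genes beyond counting noise on that scale were not counted, so these calls cannot be read as particular to the members. Fewer lower calls and the changes of direction follow from the shift itself, which raises every gene alike. Only 3.29% of tested genes had a lower difference than Nr4a3 (-0.05 on that scale), so most genes lay above 0 there. Depth limits Egr2 and the Fosb and Nr4a2 transcripts. Leaving out a replicate leaves the other's level, given in the report. No paired analysis was possible because there is 1 group.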
